A study of Mus musculus with 8 samples.

Results

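The high mobility group (HMG) genes encode small, abundant chromatin proteins. The 9 genes asked for were Hmga1, Hmga2, Hmgb1, Hmgb2, Hmgb3, Hmgn1, Hmgn2, Hmgn3 and Hmgn5, and their members on the array were the probe sets that the platform annotation gives a single one of these symbols. That rule found 15 probe sets for 6 genes, among 18193 genes with a probe set of 1 symbol and 45037 probe sets in all. Hmga2 and Hmgn1 had 4 probe sets each, Hmgb2 had 3, Hmgn3 had 2, and Hmgb3 and Hmgn5 had 1 each. The other 3 genes had none. Hmgb1 is listed on 5 probe sets and Hmgn2 on 1, each time together with further symbols, so their signals could not be assigned and are not given. No probe set is listed for Hmga1 in the annotation used here.

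The cells were NIH3T3, an established mouse embryonic fibroblast line, transduced with mVenus-p27K-, a fluorescent fusion of a mutant of the CDK inhibitor p27, and with mCherry-hCdt1(30/120), a fluorescent fragment of the licensing factor Cdt1. All of them, in both groups, had been kept without serum and then held for 5 h in medium with 10% serum. Cells positive for both colours were sorted as G0, and cells positive for mCherry but not mVenus as G1. Total RNA was hybridised to 4 Affymetrix arrays per group. The labels do not say whether the 4 samples of a group were grown apart. The p-values therefore measure only how far these samples spread, and that spread may be technical. The comparison asks which transcripts differ between cells sorted as G0 and cells sorted as G1 under the same serum treatment. Whether the cells sorted as G1 had been quiescent before was not tested. A sorted population can hold cells at several positions in the cycle, and in bulk RNA a change in the number of cells with a transcript and a change in RNA per cell cannot be told apart.

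The HMG proteins fall into 3 unrelated classes. HMGA proteins bind the minor groove of AT-rich DNA through short motifs called AT-hooks and are high in embryonic and transformed cells. HMGB proteins carry a pair of HMG-box domains that bend DNA and an acidic tail, and HMGB2 also serves chromosome structure in dividing cells. HMGN proteins bind the nucleosome core particle and counteract the compaction of chromatin by linker histone H1. All are best known as proteins that assist other factors at chromatin, and several are abundant in proliferating cells.

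The sequences before the starts of 3 of the genes are shown because Hmgb2 and Hmgb3 had the largest differences with groups that did not overlap, while those of Hmga2 lay around 0. They are the 250 bases before the RefSeq start in GRCm38.p6, written 5′ to 3′ on the strand of the gene. Hmgb2 is at chr8:57511593-57511842 on the plus strand, Hmgb3 at chrX:71555667-71555916 on the plus strand, and Hmga2 at chr10:120476470-120476719 on the minus strand. Capitals mark matches, on either strand, to the CCAAT box (CCAAT), which the factor NF-Y binds, and to the letters TTTGAA. The latter is the core of the cell cycle genes homology region (CHR), known from promoters of genes of G2 and mitosis.
Hmgb2: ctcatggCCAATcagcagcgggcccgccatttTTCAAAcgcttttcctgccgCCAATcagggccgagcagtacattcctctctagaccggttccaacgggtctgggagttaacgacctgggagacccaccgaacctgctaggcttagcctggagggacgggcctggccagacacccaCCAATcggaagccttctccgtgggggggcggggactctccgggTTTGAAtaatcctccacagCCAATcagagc
Hmgb3: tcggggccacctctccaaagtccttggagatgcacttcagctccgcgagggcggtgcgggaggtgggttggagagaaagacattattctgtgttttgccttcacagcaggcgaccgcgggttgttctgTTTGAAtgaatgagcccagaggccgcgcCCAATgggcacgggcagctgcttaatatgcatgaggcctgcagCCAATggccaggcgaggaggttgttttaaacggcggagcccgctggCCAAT
Hmga2: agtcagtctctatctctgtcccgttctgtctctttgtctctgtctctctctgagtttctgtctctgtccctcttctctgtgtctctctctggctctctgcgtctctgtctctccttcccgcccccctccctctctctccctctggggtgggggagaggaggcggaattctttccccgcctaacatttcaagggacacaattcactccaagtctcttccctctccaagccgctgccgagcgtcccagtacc

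Hmgb2 held 4 CCAAT boxes and 2 CHR matches, and Hmgb3 held 3 and 1. Hmga2 held 0 of either. Of the other members with a listed promoter, Hmgn1 and Hmgn5 each held 2 CCAAT boxes and 0 CHR matches, and Hmgn3 is not in the promoter table used. Of 32851 promoter windows of this length, 33.8% held a CCAAT box, 10.1% held at least 2, 16% held a CHR match, and 1.53% held at least 2 CCAAT boxes with at least 1 CHR match, as Hmgb2 and Hmgb3 did. Among 18109 windows of the genes measured here these shares were 34.7%, 11.4%, 11.9% and 1.26%. Among 83 windows of the genes higher in G1 past the threshold they were 59%, 32.5%, 26.5% and 8.43% (7 windows). The 5 members were also searched for the GC box GGGCGG, the E2F-type site TTTNNCGC and the TATA box TATAAA. The GC box matched 1 time in Hmgb2, 1 time in Hmgb3, 4 times in Hmgn1 and 1 time in Hmga2. It is held by 32.7% of all windows, 48.3% of those of measured genes and 68.7% of those of the genes higher in G1. The E2F-type site (4.28%, 5.84% and 14.5% of these 3 sets) and the TATA box (12.4%, 8.81% and 3.61%) matched in 0 of the 5. No match to one motif overlapped a match to another in these windows. A match is a string of letters, not a measured binding site.

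**Figure D1:**
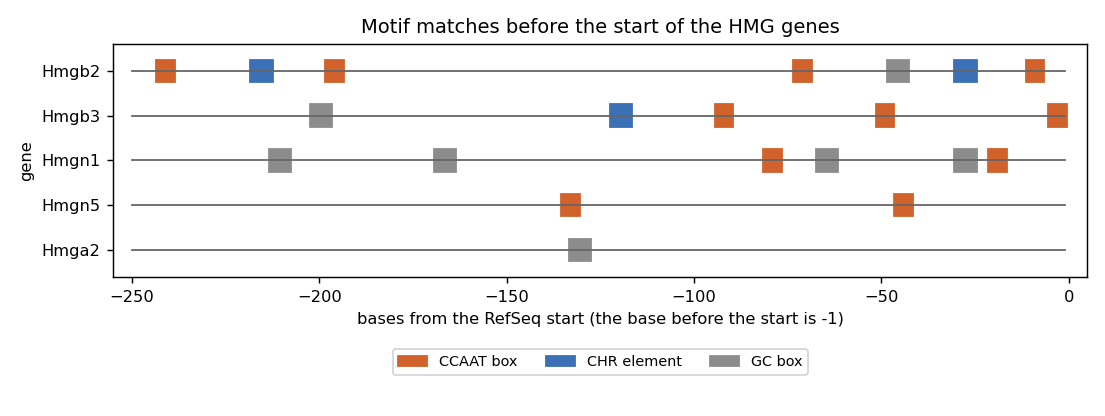
Positions of motif matches in the 250 bases before the RefSeq start of 5 HMG genes. The horizontal axis is the distance from the start in bases and each coloured block is 1 match on either strand; CCAAT and CHR matches stand together in Hmgb2 and Hmgb3, and Hmga2 has neither.

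The values are log2 expression centred on each probe set's own median over the 8 arrays, with the base taken as 2 from their range. They give differences between arrays and no absolute level, so whether a member was expressed near background could not be read, nor could fibroblast identity be checked by level. Array medians lay between −0.07 and 0.09. By the labels, the replicate 4 arrays were prepared with protocol revision 3 and the others with revision 8. The signals of the poly-A spike-ins, which are bacterial RNAs put into the samples before labelling, instead were absent on G0 replicate 3 and G1 replicate 4, with medians of −7.12 and −6.40 against −0.14 to 0.62 on the other 6 arrays. Labels and spike-ins thus disagree on 2 arrays, G0 replicates 3 and 4. Whether the titles of these 2 were exchanged was not tested. Both belong to G0, so an exchange would leave the group means as they are and alter only the batch covariate. Differences are G1 minus G0 in limma, with the labelled batch as a covariate. Results are also given with a covariate for the arrays lacking spike-ins in its place (the spike-in covariate), and on the 6 arrays that have spike-ins. Among markers of other cell types, 0 of 7 leukocyte, 0 of 6 epithelial, 0 of 5 endothelial and 0 of 5 muscle and fat genes passed in limma, as did 0 of 10 fibroblast genes. The shares over all genes were 0.5% higher and 0.022% lower past the threshold. At an unadjusted p under 0.05, 3 of these 33 genes passed, against 8.07% of all genes. With shares this small, 0 passing does not show that other cell types were absent. The per-array medians of the marker lists varied more in G0 than in G1. They lay between −0.14 and 0.44 in G0 and between −0.16 and 0.10 in G1 for leukocyte markers, and between −0.67 and 0.66 in G0 and −0.06 and 0.34 in G1 for epithelial ones. Endothelial markers lay between −0.93 and 0.80 in G0 and −0.20 and 0.42 in G1, and muscle and fat markers between −0.14 and 0.36 in G0 and −0.18 and −0.03 in G1. The part of other cell types in the results was not tested.

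Hmgb2 was the HMG gene with the clearest difference, 2.85- to 3.72-fold higher in cells sorted as G1 on its 3 probe sets, 1 of which passed the test. Hmgb3 was 2.27-fold higher without passing it. Differences of Hmgn1 and Hmgn5 were smaller or scattered, and those of Hmgn3 and Hmga2 lay close to 0. In limma 1 of the 15 probe sets passed an adjusted p of 0.05, the Hmgb2 probe set 1452534_a_at, and 0 were lower. Of all 45037 probe sets 0.4% passed in either direction and 0.373% were higher. Under the spike-in covariate 2 of the 15 were higher, both of Hmgb2, against 0.702% of all probe sets. On the 6 arrays with spike-ins 0 passed in limma, against 0.0977% of all, and 4 did at an unadjusted p under 0.05, against 8.16% of all. At that unadjusted p the 8-array fit held 4 of the 15, all of Hmgb2 and Hmgb3, where 7.3% of all probe sets did. In 5 of the 15 the 4 G1 arrays lay above the 4 G0 arrays, against 3.16% of all probe sets. The median difference of the 15 was 0.27, and that of all probe sets −0.06.

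**Figure D2:**
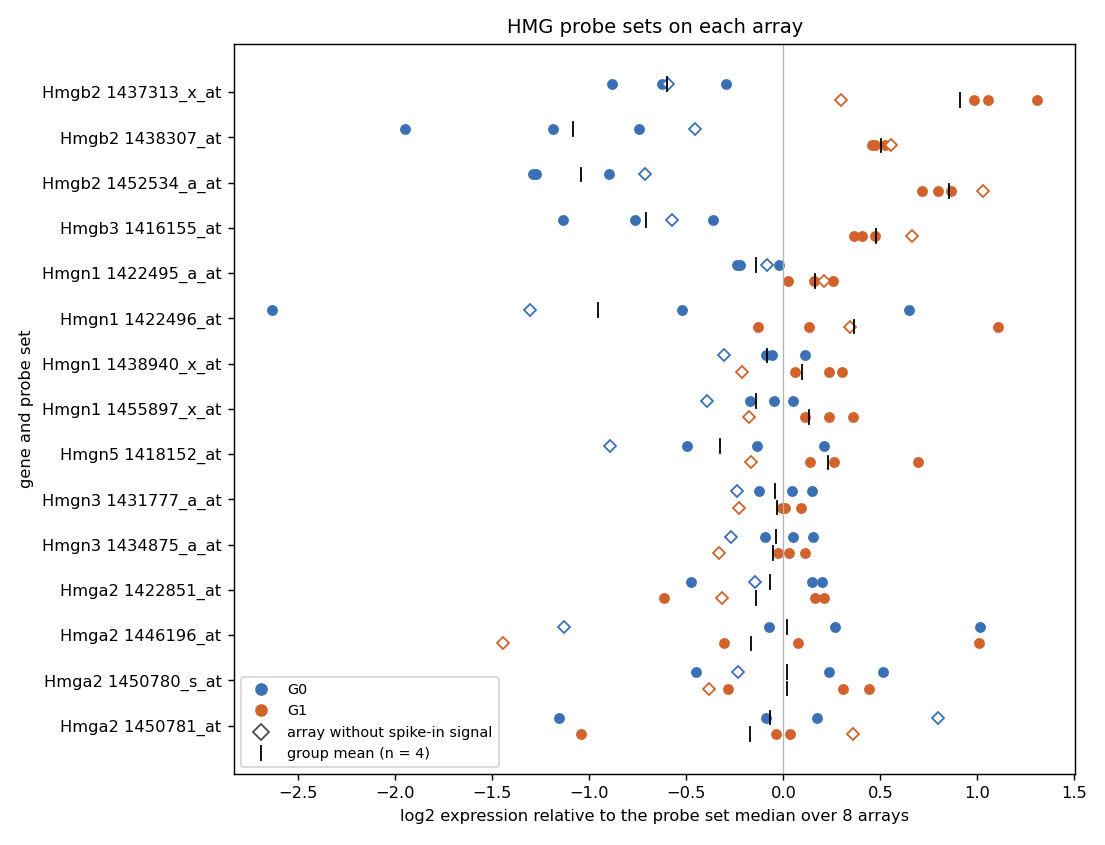
Value of each HMG probe set on each array, as log2 expression relative to the probe set's median over 8 arrays. Blue points are G0 and orange points G1 arrays, open diamonds are the arrays without spike-in signal, and black bars are group means of 4 arrays; the groups do not overlap for the 3 Hmgb2 probe sets, Hmgb3 and 1 Hmgn1 probe set.

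On the called Hmgb2 probe set, 1452534_a_at, G0 replicates 1 to 4 read −1.29, −1.28, −0.71 and −0.90, and G1 replicates 1 to 4 read 0.86, 0.71, 0.80 and 1.03. Every G1 array lay above every G0 array, with a gap between the groups wider than the spread within either. The means were −1.04 ± 0.29 in G0 and 0.85 ± 0.13 in G1 (SD, n = 4). The difference of 1.90 (SE 0.23), or 3.72-fold, passed in limma (adjusted p = 0.026, or 0.0078 under the spike-in covariate). Of all probe sets, 1.49% had a larger positive difference. The size held in every fit run, at 1.83 to 2.03, whereas the call did not. Leaving out G0 replicate 1, 2 or 4 in limma gave adjusted p = 0.072, 0.096 and 0.095. Leaving out G1 replicates 1 to 4 gave adjusted p = 0.219, 0.152, 0.193 and 0.217, and in each of these fits 0 of all probe sets passed. A call lost where 0 passed is not particular to Hmgb2. Without G0 replicate 3 the limma call stood (adjusted p = 0.027), where 122 of all probe sets passed. In the 6 arrays with spike-ins the difference was 1.95 (adjusted p = 0.067). By the labels, 1 of the batches held only the replicate 4 arrays. With that covariate, leaving out either of these gave the difference within the other labelled batch, 1.88, and is no separate check.

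The second Hmgb2 probe set, 1437313_x_at, read −0.63, −0.89, −0.59 and −0.29 on G0 replicates 1 to 4 and 1.31, 1.05, 0.98 and 0.29 on G1 replicates 1 to 4. The groups did not overlap, and the lowest G1 value came from replicate 4, one of the arrays without spike-in signal. The difference was 1.51 (SE 0.28; 2.85-fold) and passed in limma under the spike-in covariate (adjusted p = 0.041) but missed with the labelled batch (adjusted p = 0.115). Its _x_at suffix marks probes that may also bind other transcripts. Under the spike-in covariate, this call was lost whichever single array was left out (limma, adjusted p = 0.078 to 0.167). Of all probe sets, 0 passed in these fits without G1 replicate 1, 3 or 4, and 53 without G1 replicate 2. Without a G0 array, 99 to 237 passed. Leaving out G0 replicate 3 or G1 replicate 4 gave the difference on the 6 arrays with spike-ins, 1.72, and is no separate check.

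The remaining Hmgb2 probe set, 1438307_at, read −1.19, −1.95, −0.46 and −0.75 in G0 and 0.47, 0.46, 0.52 and 0.55 in G1, replicates 1 to 4. The G1 arrays were nearly identical, while G0 scattered widely (SD 0.65 against 0.04). The difference was 1.59 (SE 0.39; 3.01-fold) and missed the threshold in both limma fits (adjusted p = 0.296 and 0.136). With the 3 probe sets averaged on each array, Hmgb2 read −0.91 ± 0.37 in G0 and 0.75 ± 0.11 in G1 (SD, n = 4). That mean differed by 1.66 (3.17-fold; 95% confidence interval 1.10 to 2.23) and passed in limma over all genes (adjusted p = 0.036, or 0.019 under the spike-in covariate). Within the labelled batch of 6 arrays, the probe sets 1437313_x_at, 1438307_at and 1452534_a_at differed by 1.82, 1.68 and 1.88. Between the replicate 4 arrays, 1 per group, they differed by 0.59, 1.30 and 1.93. Between the arrays without spike-ins, also 1 per group, they differed by 0.89, 1.01 and 1.74. Hmgb2 was thus positive in each of these subsets, which give no test where they hold 1 array per group.

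Hmgb3, an HMGB protein known from embryonic and blood-forming cells, read −1.14, −0.77, −0.57 and −0.36 on G0 replicates 1 to 4 and 0.47, 0.36, 0.40 and 0.66 on G1 replicates 1 to 4. All 4 G1 arrays lay above all 4 G0 arrays, and again G0 was the more scattered group (SD 0.33 against 0.13). The difference was 1.18 (SE 0.23; 2.27-fold; 95% confidence interval 0.64 to 1.73). It did not pass in limma over all probe sets (adjusted p = 0.146, or 0.082 under the spike-in covariate). It was positive in every fit run, from 1.05 to 1.33, and 0 of them called it. The difference was 1.24 within the labelled batch of 6 arrays and 1.02 between the replicate 4 arrays. It was 1.17 on the 6 arrays with spike-ins and 1.23 between the 2 arrays without them.

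Of the HMGN genes, Hmgn1 had 4 probe sets with positive differences, of which 0 passed in limma. Its probe set 1422495_a_at was the tightest, reading −0.24, −0.02, −0.08 and −0.22 in G0 and 0.25, 0.16, 0.02 and 0.21 in G1. These groups did not overlap, but only by a narrow gap, and the difference was 0.30 (SE 0.19; 1.23-fold; adjusted p = 0.819). The probe set 1422496_at read −2.63, 0.65, −1.30 and −0.52 in G0 and 1.11, −0.13, 0.13 and 0.34 in G1. G0 replicate 2 lay above 3 of the G1 arrays, and the difference of 1.32 had a 95% confidence interval of −0.36 to 2.99 (limma, adjusted p = 0.780). Without G0 replicate 1 it fell to 0.748, so that probe set is too scattered to read as a change. The _x_at probe sets 1438940_x_at and 1455897_x_at differed by 0.18 and 0.27 (limma, adjusted p = 0.934 and 0.869), with overlapping groups, and by 0.0877 and 0.165 without G0 replicate 3. The mean of the 4 differed by 0.52 (95% confidence interval −0.11 to 1.15; limma, adjusted p = 0.665).

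Hmgn5, an X-linked HMGN protein with a long acidic tail, read −0.50, 0.21, −0.89 and −0.14 on G0 replicates 1 to 4. On G1 replicates 1 to 4 it read 0.14, 0.69, 0.26 and −0.17. The groups overlapped through G0 replicate 2 and G1 replicate 4, and the difference was 0.56 (SE 0.32; 1.47-fold; limma, adjusted p = 0.800). Without G0 replicate 3 alone it was 0.349. Under the spike-in covariate its 95% confidence interval of 0.03 to 1.09 excluded 0, and the limma adjusted p was 0.416. In both groups the array without spike-in signal had the lowest value. The same held for both Hmgn3 probe sets and for both _x_at probe sets of Hmgn1. The part of labelling in this was not tested.

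Hmgn3 read −0.13, 0.15, −0.24 and 0.04 in G0 and 0.01, 0.09, −0.01 and −0.23 in G1 on probe set 1431777_a_at, replicates 1 to 4. Its other probe set, 1434875_a_at, ran closely alongside, spanning −0.27 to 0.15 in G0 and −0.33 to 0.11 in G1. The differences were 0.01 (95% confidence interval −0.47 to 0.49) and −0.01 (−0.52 to 0.49), and limma gave adjusted p = 0.998 and 0.997. The intervals leave out a change of the size measured for Hmgb2. Both signs depended on the fit, since values this close to 0 changed sign when single arrays were left out.

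Hmga2, the HMGA protein whose loss causes the pygmy mouse, had 4 probe sets with overlapping groups. The probe set 1422851_at read −0.48, 0.15, −0.15 and 0.20 in G0 and −0.62, 0.21, 0.16 and −0.31 in G1, replicates 1 to 4. Replicate 1 was the lowest array in each group, and the groups covered almost the same range. The difference was −0.07 (95% confidence interval −0.78 to 0.64; limma, adjusted p = 0.988). The probe set 1450780_s_at differed by 0.00 (SE 0.32), 1450781_at by −0.10 (SE 0.49) and 1446196_at by −0.19 (SE 0.64), with limma adjusted p from 0.984 to 0.9995. The widest of them, 1446196_at, spanned −1.13 to 1.01 in G0 and −1.45 to 1.01 in G1. The lowest array of each group there was the one without spike-in signal. The mean of the 4 probe sets differed by −0.09 (95% confidence interval −0.82 to 0.64), an interval that does not reach the 3.17-fold difference of Hmgb2 but allows smaller changes either way.

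**Figure D3:**
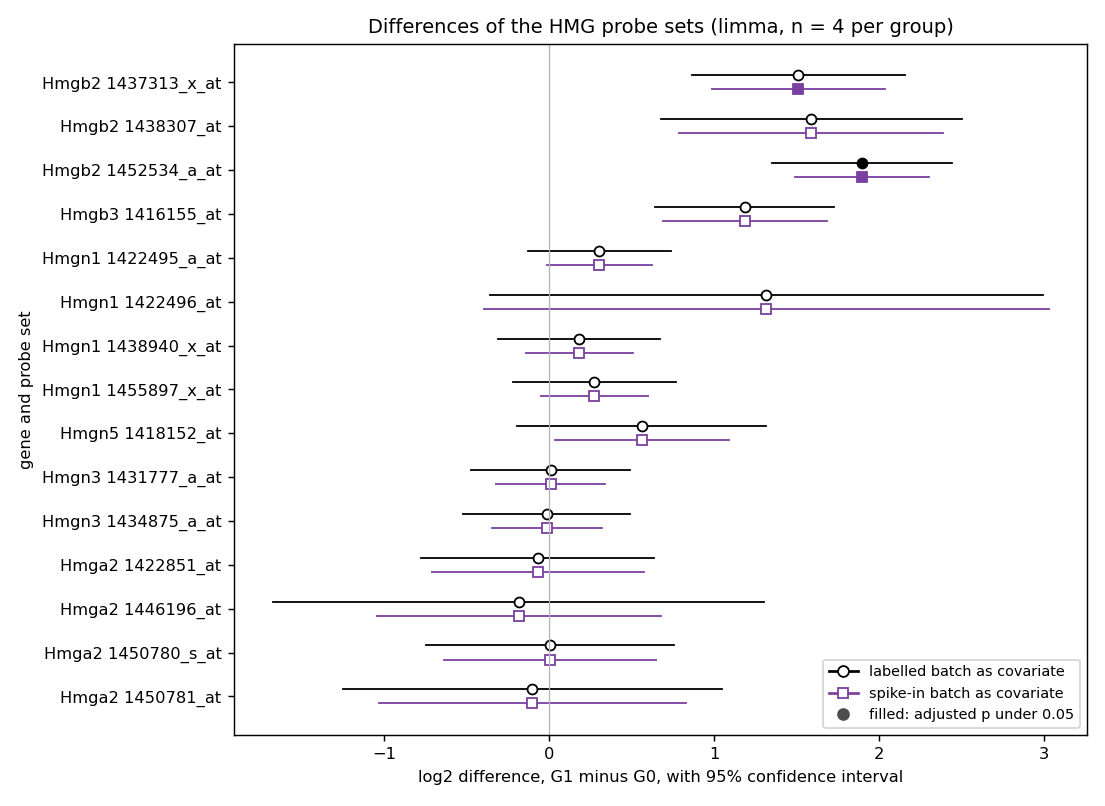
Log2 difference, G1 minus G0, of each HMG probe set with its 95% confidence interval, from limma fits on 4 arrays per group with the labelled batch (black circles) or the spike-in batch (purple squares) as covariate. Filled symbols have an adjusted p under 0.05; they are 1452534_a_at of Hmgb2 in both fits and 1437313_x_at of Hmgb2 in the spike-in fit.

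Whether genes of one class differed in their response was tested on the difference between 2 genes on each array, by an exact permutation test, two-sided, with 1 probe set per gene chosen by suffix and number. The smallest p that 4 against 4 arrays allow is 0.0286. Of the 4 pairs that could be formed within a class, 0 passed after Benjamini-Hochberg adjustment over the 4. At that smallest p, 1 fully separated pair alone could not pass the adjustment, so this count does not decide whether genes of a class differ. With probe sets averaged, Hmgn3 and Hmgn5 separated fully (exact permutation p = 0.0286), and the adjusted p was 0.114. The G1 minus G0 difference of Hmgb2 exceeded that of Hmgb3 by 0.40 (SE 0.29, exact p = 0.229, adjusted p = 0.305), and by 0.133 without G0 replicate 2. Hmgn1 exceeded Hmgn3 by 1.31 (SE 0.69, exact p = 0.114, adjusted p = 0.229), and Hmgn3 lay below Hmgn5 by −0.55 (SE 0.19, exact p = 0.0571, adjusted p = 0.229). Hmgn1 exceeded Hmgn5 by 0.76 (SE 0.67, exact p = 0.314, adjusted p = 0.314). Without G0 replicate 1 the 2 differences of Hmgn1 were 0.777 against Hmgn3 and 0.253 against Hmgn5. With all probe sets of each gene averaged they were 0.522 and −0.041.

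Hmgb2 and Hmgb3 were also set beside the genes of the other classes. Because these were the 2 genes seen to differ most, the values are a description with no test. With 1 probe set per gene, Hmgb2 exceeded Hmga2 by 1.66 (SE 0.43) and Hmgn3 by 1.58 (SE 0.40) in the G1 minus G0 difference, and Hmgb3 exceeded them by 1.26 (SE 0.26) and 1.18 (SE 0.22). By the same measure the differences from Hmgn5 were 1.03 (SE 0.57) for Hmgb2 and 0.63 (SE 0.37) for Hmgb3, with overlapping groups. Those from Hmgn1, by its scattered probe set, were 0.27 (SE 0.93) and −0.13 (SE 0.67), also with overlapping groups. With all probe sets of a gene averaged, Hmgb2 exceeded Hmgn5 by 1.10 and Hmgn1 by 1.145, and Hmgb3 exceeded them by 0.63 and 0.67.

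The genes whose values lay nearest to each member over the 8 arrays were named by root mean square distance in log2 units, among 18192 other genes with 1 probe set each. For Hmgb2, taken by 1438307_at, they were the mitotic phosphatase gene Cdc25c (distance 0.23), Lrr1 (0.25), and Mxd3, a Myc network gene (0.26). None of them passed in limma (adjusted p from 0.115 to 0.415), nor did 1438307_at. Under the spike-in covariate Cdc25c did (adjusted p = 0.046). For Hmgb3 they were Gins2, a subunit of the replicative helicase (0.17), Dnaaf2 (0.17) and Tex101 (0.19). These did not pass in limma either (adjusted p from 0.136 to 0.222), though Dnaaf2 did under the spike-in covariate (adjusted p = 0.039). The nearest genes of Hmgn3, at distances of 0.04 to 0.05, were Park7, Impa1 and Ruvbl1, which like Hmgn3 did not pass in limma (adjusted p from 0.987 to 0.995). Those of Hmgn5 were Med14, Acadl and Mthfd2 (0.09 to 0.12), and those of Hmga2 were Abhd5, Stn1 and Card19 (0.11 to 0.13). For the scattered Hmgn1 probe set 1422496_at, the nearest genes A2m, Cib4 and 1700030C10Rik were 0.39 to 0.46 away. The nearest genes of Hmgn5, Hmga2 and Hmgn1 did not pass in limma either (adjusted p from 0.698 to 0.998). Distances over 8 arrays describe these arrays and carry no test.

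Cell cycle genes, listed for reference, had larger differences than most HMG probe sets. Of 19 measured reference genes of G2 and mitosis, 12 rose in G1, 0 fell and 7 missed the threshold in limma, with a median difference of 2.75 against −0.06 over all genes. Of 20 replication genes 4 rose, 0 fell and 16 missed it, with a median of 1.33. Over all genes 0.5% were higher past the threshold and 0.022% lower. The largest differences among the G2 and mitosis genes were those of Mki67 (3.82), Aurkb (3.50) and Birc5 (3.47), which passed. The difference of 1.90 on the called Hmgb2 probe set was exceeded by 13 of the 19 G2 and mitosis genes and by 2 of the 20 replication genes. That of 1438307_at (1.59), the probe set chosen for Hmgb2 by suffix and number, was exceeded by 14 and 7. That of 1437313_x_at (1.51) was exceeded by 17 and 8. Hmgb3's 1.18 was exceeded by 17 and 14. The 4 replication genes past the threshold were the polymerase and primase subunit genes Pola1 (1.58) and Prim1 (1.60), the ligase gene Lig1 (1.83) and the ribonucleotide reductase gene Rrm1 (1.69). Rrm2 (2.61, SE 0.52) and Cdc45 (2.04, SE 0.34) had the largest differences of that list but missed it in limma (adjusted p = 0.153 and 0.087). Under the spike-in covariate 13 replication and 14 G2 and mitosis genes were higher, against 0.929% of all genes.

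HMG-box domains also occur outside the HMGB genes asked for, and 0 of 27 such genes passed in either limma fit, with a median difference of 0.03 (at an unadjusted p under 0.05, 2 did, against 8.07% of all genes). The 27 include a further HMGB family gene, Hmgb4, which differed by 0.27 (SE 0.76, limma, adjusted p = 0.982). Wdhd1, a replication fork protein, differed by 0.87 (SE 0.27, adjusted p = 0.478) and Hmgxb4 by 0.63 (SE 0.23, adjusted p = 0.616), and these were the 2 whose groups did not overlap, where 3.79% of all genes had G1 wholly above G0. Both were named after their values were seen. The largest differences in size, those of Lef1 (1.35), Sox13 (1.31) and Sox2 (−1.18), came with SDs of 1.86, 1.71 and 1.78 in G0 and cannot be read as changes (limma, adjusted p = 0.835, 0.830 and 0.940).

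Of 8 genes of the histone chaperone FACT and of chromatin assembly, 1 was higher in limma, the histone H3-H4 chaperone Asf1b (2.45, SE 0.23; 5.46-fold; adjusted p = 0.011), and 7 did not pass, where 0.5% of all genes were higher. At an unadjusted p under 0.05 there were 3 of the 8, against 8.07% of all genes, and in 4 of the 8 the G1 arrays lay wholly above the G0 arrays, against 3.79%. The chromatin assembly factor subunit Chaf1b differed by 1.69 (SE 0.35) and missed in limma with the labelled batch (adjusted p = 0.184) but passed under the spike-in covariate (adjusted p = 0.015). The FACT subunit Supt16 differed by 0.50 (SE 0.19, adjusted p = 0.641). Of 5 partners of HMGB2 in the SET complex, 0 passed in limma (0 at an unadjusted p under 0.05), with differences from 0.11 to 0.41. The largest were those of Anp32a (0.41), Set (0.26) and Nme1 (0.17). Of 10 receptors and extracellular partners of HMGB1, 0 passed, with 1 at an unadjusted p under 0.05. The largest differences there were those of Tlr2 (−1.45, SE 0.56, adjusted p = 0.642), Ager (−0.85) and Cxcl12 (−0.84). Of 4 measured linker histone genes, the competitors of HMGN proteins for nucleosomes, 0 passed, with 0 at an unadjusted p under 0.05. They ranged from −0.89 for H1f6 (SE 0.89) to 0.55 for H1f4 (SE 1.34), errors too wide to read these genes as changed or unchanged. Of 4 Lin28 and Igf2bp genes, which act in the same developmental pathway as Hmga2, 0 passed, with 0 at an unadjusted p under 0.05. The largest difference was that of Lin28a (1.21, SE 0.57, adjusted p = 0.731).

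**Figure D4:**
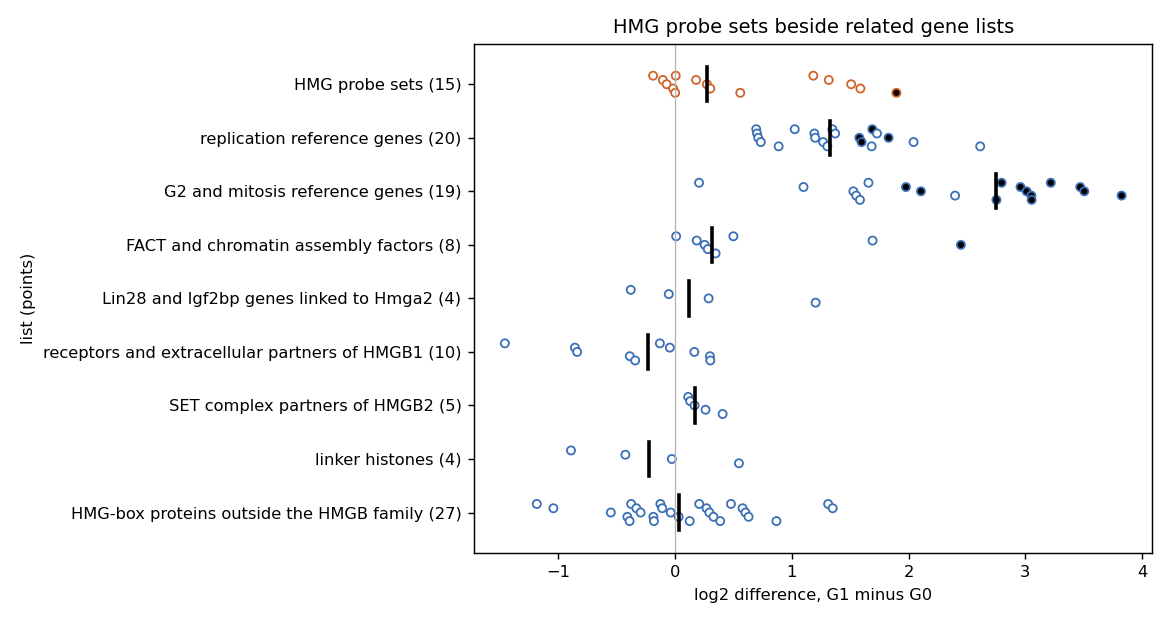
Log2 difference, G1 minus G0, of the 15 HMG probe sets and of the genes of 8 related lists, 1 point per probe set or gene, with the number of points in brackets. Black bars are medians and filled points have an adjusted p under 0.05 in limma, among them 1 HMG point. The HMG median of 0.27 counts every probe set. Those of the replication (1.33) and G2 and mitosis (2.75) genes count 1 probe set per gene, so they are not like measures. With 1 probe set per gene, the HMG differences ran from −0.07 (Hmga2) to 1.59 (Hmgb2).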

How the data were processed

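RNA of 8 NIH3T3 samples, 4 sorted as G0 and 4 as G1 by their titles, was measured on Affymetrix mouse arrays. MAS5 made the deposited log2 values, per the submitters' processing notes, and the values show that each probe set had then been centred on its median (largest absolute median 5e-07). Neither the step that took logs nor the log base was given in the sources used here. Centring removes levels, so no filter on level was possible. No further scaling was applied. Of 45101 probe sets, 64 manufacturer's controls were left out. Of the rest, 34945 had 1 symbol, 932 several and 9160 none. For 34741 of the probe sets with 1 symbol, the symbol was taken through the Entrez identifier from the gene table of GRCm38.p6, whether or not it differed.

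The test of differences was limma 3.58.1 under R 4.3.3 (eBayes with a trend after lmFit), two-sided, with the labelled batch as covariate, 5 residual degrees of freedom and Benjamini-Hochberg adjustment over 45037 probe sets at 0.05. The fit was tested on simulated data. For lists, a gene was represented by 1 probe set, by suffix (_at before _a_at, _a_at before _s_at, _x_at last) and by the lowest number within a suffix. All probe sets of the members were named, as were list genes past the threshold and up to 3 with the largest differences, with examples given where more passed. Single values were compared with exact permutation tests in scipy 1.17.1. The 10 within-class pairs planned became 4, since 3 genes had no probe set of their own. Arrays with a spike-in median below −2 formed the second spike-in batch. The members and lists were chosen with earlier results of these data known. Alternatives covered covariates, normalization, variance settings, probe sets tied at their lowest value and single arrays left out.

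By number the replicates did not pair: the deviations of G0 and G1 arrays with the numbers 1 to 4 correlated at 0.069, 0.106, −0.139 and −0.136. The highest correlation over all pairings, 0.309, was that of G0 replicate 3 with G1 replicate 4, the arrays without spike-in signal. With 4 arrays a group, their number limits the precision.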

Additional observations from a re-analysis of the deposited data

How the results depend on the processing

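Across the 26 other fits, differences of the Hmgb2 and Hmgb3 probe sets stayed positive. In limma the count of HMG probe sets past the threshold, 1 of 15, became 2 with the spike-in batch as the covariate and 0 in labelling batch 1 alone, on the 6 arrays with spike-ins and with the replicate block (4 at an unadjusted p under 0.05 in each). Fits without a covariate, with quantile or median scaling, without the trend, with array weights, and without probe sets tied at their lowest value gave 1. For all probe sets the count of 180 became 355 with the spike-in batch, 44 on the 6 arrays and 0 in labelling batch 1 or with the block (3575 and 3219 at an unadjusted p under 0.05). Of genes in the related lists, 17 became 29 with the spike-in batch, 10 on the 6 arrays and 0 in labelling batch 1 or with the block (40 and 38 at an unadjusted p under 0.05). Single arrays left out, under either batch covariate, gave 0 to 1 HMG probe sets, 0 to 237 probe sets in all and 0 to 25 list genes; those with the spike-in batch were added after the data were seen. By 1 probe set per gene 0 HMG genes passed in limma, where 0.5% of all genes were higher and 0.022% lower. At an unadjusted p under 0.05 there were 2 of 6 genes, against 8.07% of all genes. By the mean of all probe sets 1 passed, Hmgb2, and the share of all genes was not counted for that mean. The replicate numbers do not pair the samples.

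Signs near 0 were unstable. The Hmga2 probe set 1422851_at became 0.0781 in labelling batch 1 and 0.0049 with array weights, and ranged from −0.229 to 0.113 with single arrays left out. Its 1446196_at became 0.571 in labelling batch 1 (−0.608 to 0.571 with single arrays left out), and 1450780_s_at ranged from −0.200 to 0.210. Its 1450781_at became 0.0108 on the 6 arrays, 0.0189 with quantile scaling and 0.0366 with weights (−0.457 to 0.234). For Hmgn3, 1431777_a_at ranged from −0.0675 to 0.101, and 1434875_a_at became 0.107 in labelling batch 1, 0.00141 on the 6 arrays, 0.015 with quantile scaling and 0.0114 with median centring (−0.106 to 0.107). Hmgn1 minus Hmgn5 turned from 0.757 to −0.041 with probe sets averaged. The cause was not tested. The other pairs kept their direction, Hmgn1 minus Hmgn3 ranging from 0.777 to 1.78 with single arrays left out. Without a level, signal over background could not be judged.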
